A study of Mus musculus with 12 samples.

Results

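The 10 genes described here, Lhpp, Gulo, Rgn, Csad, Aldh1a1, Aldh3a2, Akr1c6, Pon1, Nt5e and Ang, encode enzymes made by hepatocytes and were grouped as enzymes of the pericentral zone, the hepatocytes around the central vein. They were taken by gene name, with every probe the array holds for them, and make up 10 of 34844 gene names. All 10 were among the 26290 genes kept for analysis, through 11 probes, with a pair of probes for Lhpp and 1 for each of the others. The genes were chosen by measured values, the difference between survivin-deleted and wild-type hepatocellular carcinoma (HCC) and the correlation with Glul across arrays. Both are therefore given as descriptions, with no test. Each probe of the 10 genes was well above background on all 12 arrays.

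Transcripts were measured on 12 single-colour Agilent mouse arrays in 4 groups of 3, which were survivin-deleted HCC, wild-type HCC, survivin-deleted non-cancerous liver and wild-type non-cancerous liver. Survivin-deleted tissue came from Mxcre+ mice and wild-type tissue from Mxcre- mice, all male and of strain 129/SV/B6. Every group had received the carcinogen N-nitrosodiethylamine (DEN) at 50 mg/kg at 2 weeks of age, then poly(IC) 8 months later, and tissue was collected 1 week after poly(IC). All groups, controls included, also had irradiation and a bone marrow transplant, dated 2 months before collection. The Mx promoter that drives Cre responds to interferon in liver and in blood cells, and the labels do not give the genotype of the transplanted marrow, so whether blood cells carry the deletion is not known here. Nothing in the labels ties an array to an animal, or a tumour to the liver it grew in. The p-values therefore measure the spread between these arrays, which may be technical.

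Hepatocytes differ along the line from the portal vein to the central vein. Those next to the central vein receive Wnt signals from the endothelium, keep beta-catenin active and express Glul, the glutamine synthetase that captures ammonia. Periportal hepatocytes instead carry out urea synthesis and gluconeogenesis. The genes described here cover several tasks of hepatocytes. Gulo and Rgn act in vitamin C synthesis, Csad in taurine synthesis, Aldh1a1, Aldh3a2 and Akr1c6 in the conversion of aldehydes and steroids, Nt5e and Lhpp in the removal of phosphate groups, and Pon1 and Ang are secreted. Arrays of whole tissue hold no position within the lobule, so the zone itself was not measured here. For the same reason fewer cells of a type and less RNA per cell cannot be told apart.

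Arrays labelled replicate 1 of each group were on one slide and replicates 2 and 3 on another. The slides differed in brightness, with 75th percentiles of the processed signal of 1283 to 1958 on slide 1 and 3639 to 4243 on slide 2. Between 49.0% and 83.4% of probes were well above background. The lowest share was in wild-type liver replicate 1 and the highest in survivin-deleted liver replicate 1, both slide 1 arrays of the liver comparison. In the deposited value table, the columns of survivin-deleted liver replicate 1 and wild-type HCC replicate 1 matched each other's scanner file (r = 1) and their own less well (r = 0.964 and 0.970), so the labels of these 2 arrays are in doubt. Values are given as the scanner files are labelled, and those without these arrays or with them exchanged are added for the main results. The brightest probe of Birc5, the survivin gene, lay at -0.08 to 0.17 in survivin-deleted HCC, against 0.80 to 1.76 in wild-type HCC, on the log2 scale relative to the array's 75th percentile. That difference had an exact two-sided permutation p of 0.1, the smallest that 3 arrays against 3 allow. In survivin-deleted liver the range was -1.07 to 2.42, against 0.51 to 2.85 in wild-type liver (exact permutation p = 0.5). The 2.42 was that of survivin-deleted liver 1, one of the arrays in doubt, where wild-type HCC 1, the other, measured 0.80. On slide 2 survivin-deleted liver lay at -0.10 and -1.07, below wild-type liver at 0.51 and 0.76. The dimmest Birc5 probe was also lower without overlap in survivin-deleted HCC (-1.79, exact permutation p = 0.1). On the remaining Birc5 probe the HCC groups overlapped (-1.09, exact permutation p = 0.2), and on slide 1 survivin-deleted HCC was higher, by 0.33. In liver the exact permutation p was 0.3 for each of these probes. Their liver differences were -0.10 and -0.06 on slide 1 and -1.81 and -1.44 on slide 2. Whether the Birc5 probes lie in the deleted exons is not given in the sources used here.

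Lhpp, a phosphatase of phosphohistidine and pyrophosphate, differed most among the 10 genes. Its brighter probe (mm9 chr7:139898005-139898064, plus strand) measured 2.26, 3.31 and 2.37 on arrays 1, 2 and 3 of survivin-deleted HCC, against 1.66, -2.41 and -0.90 in wild-type HCC. Every array of survivin-deleted HCC lay above every array of wild-type HCC, and the low values were those of wild-type HCC 2 and 3. In survivin-deleted liver the values were 1.97, 2.55 and 3.17, against 2.33, 1.47 and 2.51 in wild-type liver, and these groups overlapped. The deleted minus wild-type difference in HCC was 3.19 ± 0.82 on the log2 scale (SE of the fit with slide as a block, n = 3 each), a 9.16-fold higher signal. It was 0.60 on slide 1 and 4.49 on slide 2, where it corresponds to 22.5-fold. Without both arrays in doubt it was 4.34, or 20.2-fold, and with them exchanged 3.09. Leaving out wild-type HCC 2 alone gave 2.30, and leaving out wild-type HCC 1 alone gave 4.42.
The other Lhpp probe lies 75.84 kb away, assigned by the files to the same transcript, and is printed because it gives a second reading of the Lhpp difference (mm9 chr7:139822165-139822224, plus strand, 60 bases, all lower case):
Lhpp dimmer probe: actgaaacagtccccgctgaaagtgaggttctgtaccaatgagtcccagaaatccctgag
On this probe survivin-deleted HCC measured 0.53, 0.62 and -0.92, against -0.14, -5.54 and -3.78 in wild-type HCC. Again wild-type HCC 2 and 3 were the lowest of the 12 arrays, but wild-type HCC 1 lay above survivin-deleted HCC 3, so the groups overlapped. The difference was 3.23 ± 0.88 (SE), close to that of the brighter probe.

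**Figure D1:**
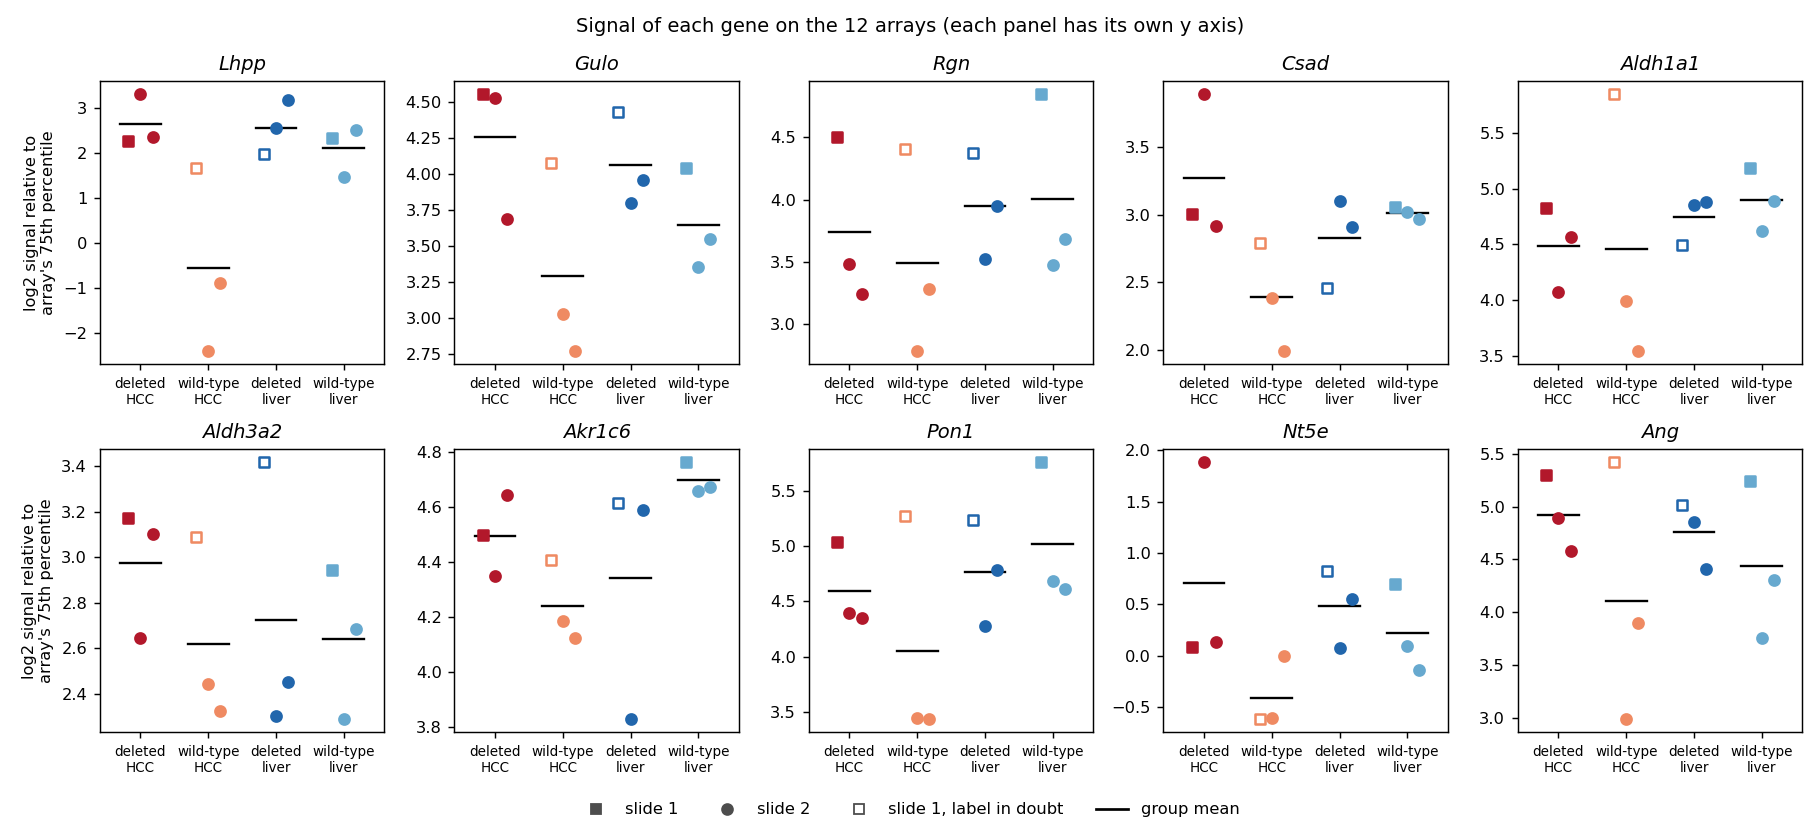
Signal of the 10 genes on each array, as log2 signal relative to the array's 75th percentile, with a panel and y axis for each gene; points are arrays, bars are means of 3 arrays, squares are slide 1, circles slide 2 and open squares the 2 arrays whose labels are in doubt. Lhpp lies at -2.41 and -0.90 on wild-type HCC 2 and 3 and between 1.47 and 3.31 on the other 10 arrays.

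Gulo encodes L-gulonolactone oxidase, which carries out the last step of vitamin C synthesis in mice. Its probe (mm9 chr14:66605830-66605889, minus strand) measured 4.56, 4.53 and 3.69 in survivin-deleted HCC, against 4.08, 3.03 and 2.77 in wild-type HCC. Only wild-type HCC 1 reached into the range of the survivin-deleted tumours. Survivin-deleted liver gave 4.43, 3.80 and 3.96, against 4.04, 3.35 and 3.55 in wild-type liver, with the slide 1 array highest in each group. The HCC difference was 0.97 ± 0.25 (SE), or 1.96-fold, and was 0.48 on slide 1 and 1.21 on slide 2. Without both arrays in doubt it was 1.19 and the tumour groups did not overlap. Rgn encodes regucalcin, the gluconolactonase that acts just before Gulo. It differed little, with 4.50, 3.48 and 3.24 in survivin-deleted HCC against 4.40, 2.78 and 3.29 in wild-type HCC (mm9 chrX:20138932-20138991, plus strand). The array on slide 1 was highest in all 4 groups for Rgn, and the HCC difference was 0.25 ± 0.23 (SE).

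Other genes of vitamin C synthesis were read from a list. Of the 5 measured besides Gulo and Rgn, 4 were higher and 1 lower in survivin-deleted HCC than in wild-type HCC, with a median of 0.56, and none was called at an adjusted p of 0.05. Ugp2, which makes UDP-glucose, differed by 0.80 ± 0.60 (SE), Ugdh, which oxidises it to UDP-glucuronate, by 0.78 ± 0.35, and Ugt1a6a, a glucuronosyltransferase, by 0.56 ± 0.25. Ugp2 measured 3.83, 2.88 and 3.50 in survivin-deleted HCC, against 0.64, 3.75 and 3.43 in wild-type HCC. Its difference thus rests on wild-type HCC 1, whose label is in doubt. The arrays of both HCC groups did not overlap for Ugdh and Ugt1a6a. Across all 26290 genes the median HCC difference was -0.02, and 2.76% of genes were higher without overlap.

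Csad, the decarboxylase of cysteine sulfinic acid in taurine synthesis, measured 3.01, 3.90 and 2.92 in survivin-deleted HCC, against 2.80, 2.39 and 1.99 in wild-type HCC (mm9 chr15:102007569-102007628, minus strand). All survivin-deleted tumours lay above all wild-type tumours, with survivin-deleted HCC 2 the highest of the 12 arrays. The livers were closer, at 2.46, 3.10 and 2.91 in survivin-deleted liver and 3.06, 3.02 and 2.97 in wild-type liver. In HCC the difference was 0.88 ± 0.31 (SE), or 1.84-fold, with 0.21 on slide 1 and 1.22 on slide 2, and 1.14 without both arrays in doubt. The rest of the taurine list did not share this direction. Of 5 measured genes 4 were lower in survivin-deleted HCC, among them the taurine transporter Slc6a6 (-0.35 ± 0.21, SE) and the bile acid conjugating enzyme Baat (-0.25 ± 0.22), and none was called.

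Aldh1a1, which oxidises retinaldehyde to retinoic acid, had the smallest HCC difference of the 10 genes. It measured 4.83, 4.07 and 4.56 in survivin-deleted HCC, against 5.85, 3.99 and 3.54 in wild-type HCC (mm9 chr19:20717764-20717823, plus strand). The highest of all 12 arrays was wild-type HCC 1, one of the 2 arrays whose label is in doubt, and the lowest were wild-type HCC 2 and 3. Its difference of 0.03 ± 0.42 (SE) combined -1.02 on slide 1 with 0.56 on slide 2. With the 2 arrays exchanged it was 0.48, and without both it was 0.57. Aldh1a7, a close relative whose transcript may share probe signal with Aldh1a1, differed by -0.04 ± 0.31 (SE).
Of 16 other retinoid genes 8 were higher and 8 lower in survivin-deleted HCC, and none was called. The retinaldehyde dehydrogenases Aldh1a2 (1.46 ± 1.06, SE) and Aldh1a3 (1.37 ± 1.16) were among those higher. Both were dim and were well above background on 11 of the 12 arrays. Aldh1a2 measured -2.42, 0.21 and -3.76 in survivin-deleted HCC, against -2.79, -3.77 and -3.78 in wild-type HCC, so survivin-deleted HCC 2 carried most of its difference. Aldh1a3 averaged -5.23 in wild-type HCC.

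Aldh3a2, a fatty aldehyde dehydrogenase of the endoplasmic reticulum, measured 3.17, 2.65 and 3.10 in survivin-deleted HCC, against 3.09, 2.44 and 2.32 in wild-type HCC (mm9 chr11:61062365-61062424, minus strand). The tumour groups overlapped through wild-type HCC 1, and the difference was 0.36 ± 0.22 (SE). Of 12 other aldehyde dehydrogenases 5 were higher and 7 lower in survivin-deleted HCC, with a median of -0.21. Aldh3b1 was higher without overlap (1.20 ± 0.30, SE) and Aldh1b1, a mitochondrial enzyme, was lower without overlap (-0.95 ± 0.34), but none of the 12 was called.
Akr1c6, a mouse 17-beta-hydroxysteroid dehydrogenase of the aldo-keto reductase family, had the narrowest range of the 10 genes over the 12 arrays, from 3.83 in survivin-deleted liver 2 to 4.76 in wild-type liver 1. It measured 4.50, 4.35 and 4.64 in survivin-deleted HCC, against 4.41, 4.18 and 4.13 in wild-type HCC (mm9 chr13:4456428-4456487, plus strand), a difference of 0.26 ± 0.21 (SE). Akr1c genes lie close together and are similar in sequence, so probe signal may be shared among them. Of 11 other aldo-keto reductases 7 were higher and 4 lower in survivin-deleted HCC, none called. The largest difference, of Akr1b7, was 2.04 ± 1.04 (SE), and that of Akr1c19 was 1.05 ± 0.53.

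Nt5e encodes CD73, the cell surface enzyme that turns AMP into adenosine. It measured 0.09, 1.89 and 0.14 in survivin-deleted HCC, against -0.62, -0.61 and -0.0024 in wild-type HCC (mm9 chr9:88266616-88266675, plus strand). The tumour groups did not overlap, but survivin-deleted HCC 2 stood far above the other survivin-deleted tumours. In survivin-deleted liver the values were 0.83, 0.07 and 0.56, against 0.69, 0.10 and -0.14 in wild-type liver. The HCC difference was 1.11 ± 0.47 (SE), or 2.17-fold. Leaving out survivin-deleted HCC 2 brought it to 0.48, and exchanging the 2 arrays in doubt gave 0.63 with overlapping groups.
Of 14 other genes of extracellular purine handling 10 were higher and 4 lower in survivin-deleted HCC, with a median of 0.32. Slc28a2, a nucleoside transporter that takes up purine nucleosides, was higher without overlap (1.68 ± 0.38, SE), and the adenosine receptor Adora1 differed by 1.33 ± 0.72. None was called.

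Pon1, the paraoxonase carried on high-density lipoprotein, has 10 spots on each array, of which 9 or 10 were unflagged. They varied by 0.035 to 0.209 (SD, log2) within an array, so spot noise was small beside the spread between arrays. Pon1 measured 5.04, 4.39 and 4.35 in survivin-deleted HCC, against 5.27, 3.45 and 3.44 in wild-type HCC (mm9 chr6:5118166-5118225, minus strand). Wild-type HCC 2 and 3 were the lowest of all 12 arrays, and wild-type HCC 1 was above every survivin-deleted tumour. The difference was 0.54 ± 0.26 (SE), made of -0.23 on slide 1 and 0.93 on slide 2. Without both arrays in doubt it was 0.86 and the tumour groups did not overlap. Its relatives ran the other way, with Pon2 at -0.59 ± 0.25 (SE) and Pon3 at -0.57 ± 0.19. Of 9 other genes of paraoxonases and high-density lipoprotein 6 were lower and 3 higher in survivin-deleted HCC, none called.
Ang, a secreted ribonuclease, measured 5.30, 4.89 and 4.58 in survivin-deleted HCC, against 5.42, 2.99 and 3.90 in wild-type HCC (mm9 chr14:51721338-51721397, plus strand). Wild-type HCC 1 was again the highest of the tumours and wild-type HCC 2 the lowest of the 12 arrays. The difference was 0.82 ± 0.37 (SE), or 1.77-fold, with -0.12 on slide 1 and 1.29 on slide 2. Without both arrays in doubt it was 1.18, again with no overlap. Of 6 related genes 5 were higher in survivin-deleted HCC, with a median of 0.74. Among them Ang2 was higher without overlap (1.78 ± 0.77, SE), and the difference was 0.75 ± 0.46 for Ang4 and 0.45 ± 0.27 for Rnase4. The mouse angiogenins are similar in sequence and probe signal may be shared, and none was called.

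Promoters were examined in the 250 bases before the gene start (RefSeq, GRCm38.p6). Of the 10 genes 7 had an entry, with 9 starts, and Lhpp, Gulo and Rgn had none. The sequences of Pon1, Akr1c6 and Nt5e are shown because they span the makeup found among these genes, from no CpG dinucleotide to 21, and hold 2 of the 3 motif matches. Capitals mark a match to the C/EBP motif TTGCNNAA in Pon1 and to the TATA motif TATAAA in Akr1c6, and all sequences run 5′ to 3′ on the strand of the gene.
Pon1, chr6:5193947-5194196, minus strand: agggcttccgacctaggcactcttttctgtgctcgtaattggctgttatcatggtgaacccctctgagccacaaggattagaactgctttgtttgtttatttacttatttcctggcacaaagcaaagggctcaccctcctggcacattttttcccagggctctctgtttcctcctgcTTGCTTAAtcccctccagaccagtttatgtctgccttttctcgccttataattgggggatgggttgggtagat
Akr1c6, chr13:4434093-4434342, plus strand: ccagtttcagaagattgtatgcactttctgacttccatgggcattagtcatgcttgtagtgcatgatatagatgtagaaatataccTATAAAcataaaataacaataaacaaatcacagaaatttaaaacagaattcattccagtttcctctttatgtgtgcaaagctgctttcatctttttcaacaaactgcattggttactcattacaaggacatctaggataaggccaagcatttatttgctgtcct
Nt5e, chr9:88327359-88327608, plus strand: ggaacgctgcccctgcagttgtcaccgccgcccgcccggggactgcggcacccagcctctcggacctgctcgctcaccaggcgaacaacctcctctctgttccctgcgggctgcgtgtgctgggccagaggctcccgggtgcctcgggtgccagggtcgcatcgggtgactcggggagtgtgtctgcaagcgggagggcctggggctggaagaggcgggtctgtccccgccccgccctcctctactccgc
The Pon1 match starts 73 bases before the gene start, and the Akr1c6 match starts 164 bases before it. A C/EBP match was also found in 1 of the Aldh1a1 promoters, on the opposite strand. The C/EBP letters, searched on both strands, are in 9.56% of 32851 promoters of the same length, and the TATA letters, searched on the forward strand, in 7.59%. The TCF/LEF letters CTTTGAT (3.21% of all promoters) and the HNF4 letters CAAAGTCCA (0.384%), each searched on both strands, were in 0 of the 9 promoters of these genes. The median number of CpG dinucleotides was 4 in these promoters, against 6 in all promoters.

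Set side by side, all 10 genes had a difference above 0 in survivin-deleted against wild-type HCC, where 47.4% of all genes had one. The median over the 10 genes was 0.68, the range 0.03 to 3.19, against a median of -0.02 over all genes. Lhpp, Csad and Nt5e, 3 of 10, were higher without overlap, beside 2.76% of all genes, and 0 were lower without overlap, beside 2.7%. As the genes were chosen with these values known, nothing further is read from the counts. No gene on the array was called in HCC at an adjusted p of 0.05 (limma), 0% in either direction, while 7.7% had an unadjusted p under 0.05. The 4 genes with the smallest differences were Aldh1a1, Rgn, Akr1c6 and Aldh3a2.
The values depended on how the slides and the arrays in doubt were treated. On slide 2 alone, the median was 1.07 and 9 of the 10 genes were higher without overlap, the exception being Rgn, beside 27.8% of all genes, as fewer arrays overlap less often. Without both arrays in doubt the median was 0.95, again with 9 of 10 higher without overlap, beside 19.6% of all genes. With those arrays exchanged, the median was 0.59 and 2 of 10 were higher without overlap, beside 2.69%.

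**Figure D2:**
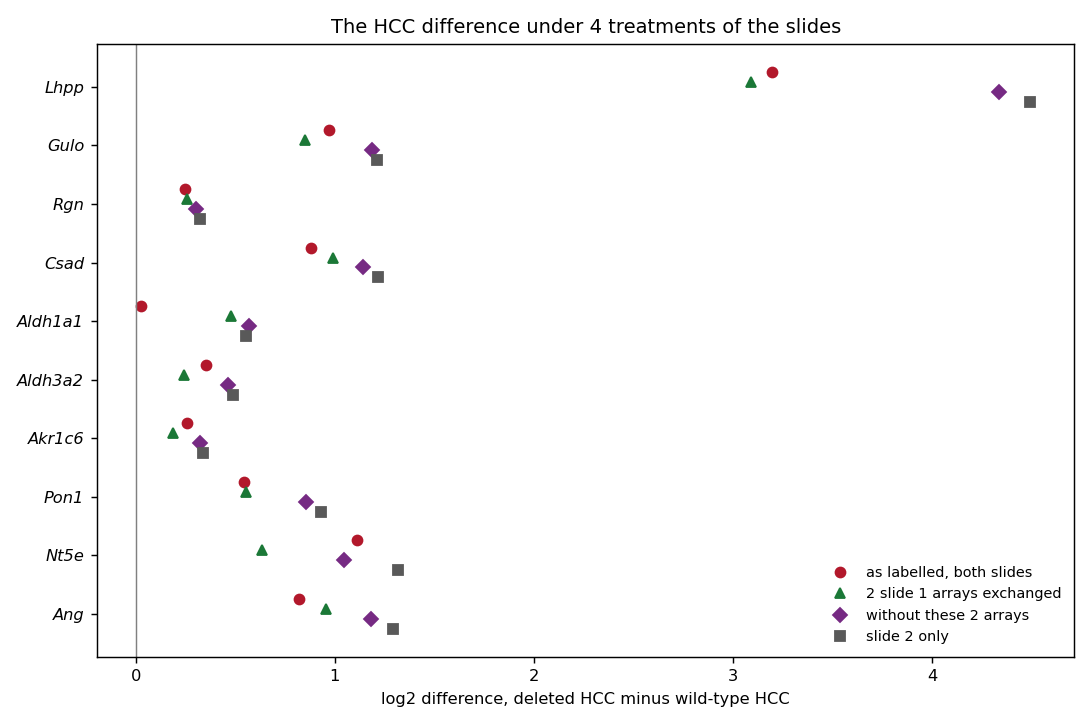
Difference between survivin-deleted and wild-type HCC for each gene (log2, x axis) as labelled on both slides, with the 2 arrays in doubt exchanged, without them, and on slide 2 alone. Lhpp moves between 3.09 and 4.49 and every point lies above 0, the nearest being Aldh1a1 as labelled at 0.03.

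Several other transcripts differed along with these genes in HCC, and their part in the result was not tested. Markers of T and NK cells were higher in survivin-deleted HCC for 9 of 10 measured genes (median 1.15), with a summed log2 signal of 2.89 to 3.81 in survivin-deleted HCC against 2.82 to 2.96 in wild-type HCC. Klrb1c of that list was too dim to be kept, and Cd4 was the marker that was lower. Markers of B and plasma cells were higher for 5 of 5 genes (median 1.09), with sums of 0.47 to 1.93 in survivin-deleted HCC and -0.71 to 1.17 in wild-type HCC. Hepatocyte markers such as Alb and Ttr were split, 4 higher and 4 lower, with a median of -0.0045, and their summed signal was 8.48 to 8.70 in survivin-deleted HCC and 8.65 to 8.78 in wild-type HCC. None of these markers was called.

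Deletion of survivin in non-cancerous liver is the comparison whose difference uses no tumour array, and the 10 genes were tested in it. The spread in the fit came from all 12 arrays, so the tumour arrays enter the SE. The SE of Lhpp was thus 0.82 in liver as in HCC. Its SD was 0.60 in survivin-deleted liver, 0.56 in wild-type liver and 2.05 in wild-type HCC (n = 3 each). The Glul correlation that helped to choose the genes included the liver arrays, so the test is not independent of that choice. None of the 10 genes was called by limma at an adjusted p of 0.05, where 0% of all 26290 genes were called. None of the 10 had an unadjusted p under 0.05, against 11.7% of all genes. Their median difference was 0.02, against 0.05 over all genes, with 5 genes higher and 5 lower, while 55.1% of all genes were above 0.
Gulo had the smallest p among the 10 (0.42 ± 0.25, SE, adjusted p = 0.48 by limma), and was higher on both slides, by 0.39 and 0.43. As labelled, Akr1c6 was the only one of the 10 whose liver groups did not overlap, beside 3.23% of all genes that were lower and 6.35% that were higher without overlap. It measured 4.61, 3.83 and 4.59 in survivin-deleted liver, against 4.76, 4.66 and 4.67 in wild-type liver (-0.36 ± 0.21, SE, adjusted p = 0.49 by limma). The low array was survivin-deleted liver 2, and without it the difference was -0.11.
For Lhpp the liver difference was 0.46 ± 0.82 (SE), with -0.36 on slide 1 and 0.87 on slide 2, and its adjusted p was 0.82 by limma. The liver differences of the other genes were 0.33 for Ang, 0.27 for Nt5e, 0.09 for Aldh3a2, -0.05 for Rgn, -0.15 for Aldh1a1, -0.19 for Csad and -0.25 for Pon1. With the 2 arrays in doubt exchanged, 4 of the 10 were higher and the median was -0.03. Without both, Lhpp was higher without overlap (0.71), beside 13.1% of all genes, and Akr1c6 was lower (-0.47), beside 14.8%. On slide 2 alone Lhpp, Gulo (0.43) and Ang (0.60) were higher without overlap, beside 25.9%, and Akr1c6 (-0.46) was lower, beside 23.7%.
Rgn measured 4.37, 3.53 and 3.95 in survivin-deleted liver, against 4.85, 3.47 and 3.68 in wild-type liver. Pon1 gave 5.23, 4.28 and 4.78 in survivin-deleted liver, against 5.76, 4.68 and 4.61 in wild-type liver. For both genes the slide 1 array was the highest of its group and the groups overlapped. Ang lay at 5.02, 4.86 and 4.41 in survivin-deleted liver, against 5.24, 3.76 and 4.30 in wild-type liver, where replicate 2 was low. Aldh1a1 lay at 4.50, 4.85 and 4.88 in survivin-deleted liver, against 5.19, 4.62 and 4.88 in wild-type liver, so its lowest liver array was survivin-deleted liver 1, the other array in doubt. Aldh3a2 had its highest value of the 12 arrays on that same array, with 3.42, 2.30 and 2.45 in survivin-deleted liver against 2.94, 2.29 and 2.68 in wild-type liver.
Hepatocyte markers were lower in survivin-deleted liver for 7 of 8 genes (median -0.27), with a summed signal of 8.26 to 8.34 in survivin-deleted liver against 8.54 to 8.88 in wild-type liver. Other markers were lower for 6 of 6 macrophage genes (median -0.25), 7 of 7 neutrophil genes (-0.30), 6 of 6 endothelial genes (-0.20) and 4 of 4 erythroid genes (-0.80). Higher were T and NK cell markers for 9 of 10 genes (0.16), B and plasma cell markers for 4 of 5 (0.25) and cholangiocyte markers for 3 of 5 (0.53). The part of these shifts in the values above was not tested.

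**Figure D3:**
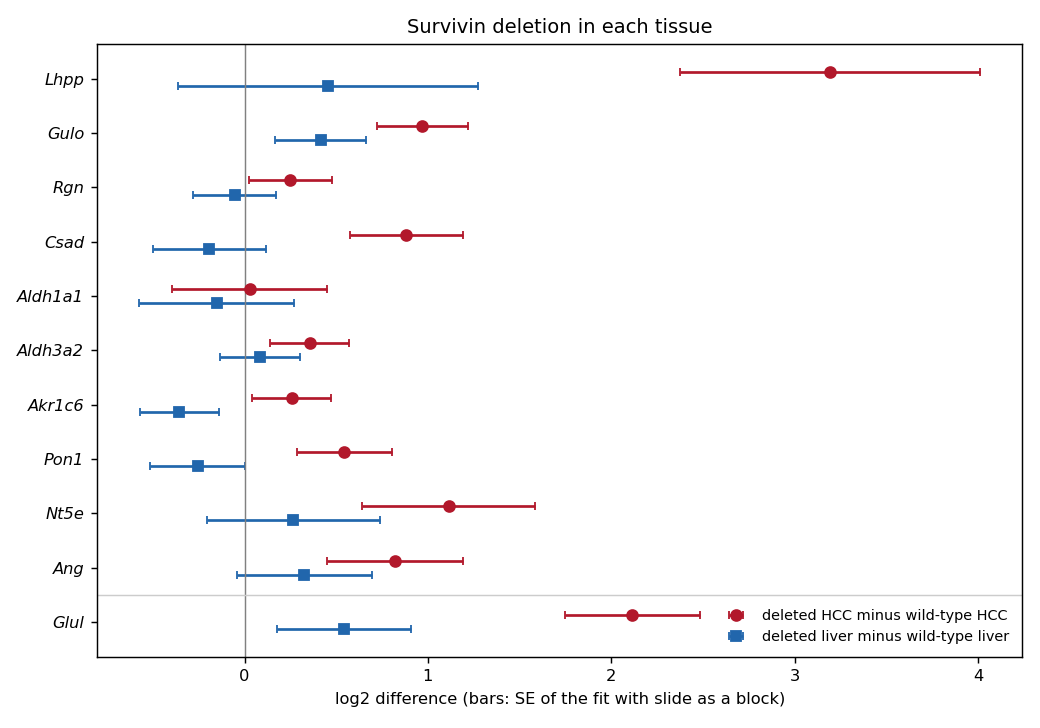
Difference between survivin-deleted and wild-type tissue (log2, x axis) in HCC (red circles) and in non-cancerous liver (blue squares), with bars of 1 SE from the fit with slide as a block, for the 10 genes and for Glul. HCC differences run from 0.03 to 3.19 and liver differences from -0.36 to 0.46, and Glul lies at 2.11 in HCC and 0.54 in liver.

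The relatives and partners of these genes were not called in liver either. All 9 other genes of paraoxonases and high-density lipoprotein were lower in survivin-deleted liver (median -0.28), among them Apoa2 (-0.48 ± 0.17, SE), Pon2 (-0.49 ± 0.25) and Clu (-0.53 ± 0.33). Of 11 other aldo-keto reductases 8 were lower and 3 higher, with Akr1c19 at -1.25 ± 0.53 (SE) where its HCC difference had been 1.05. Slc28a2 differed by 0.92 ± 0.38 (SE) and Slc28a1, a transporter of pyrimidine nucleosides, by 0.73 ± 0.33. Slc28a1 measured -0.96, -2.52 and -2.46 in survivin-deleted liver, against -2.65, -3.03 and -2.47 in wild-type liver. Its difference thus rests mostly on survivin-deleted liver 1, whose label is in doubt. Aldh3a1 differed by 0.87 ± 0.25 (SE) and Aldh1b1 by -0.89 ± 0.34.

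The tumours were then set against liver of the same genotype. These comparisons share the tumour arrays with the HCC comparison and the liver arrays with the liver comparison, so they are given without a test. In survivin-deleted HCC the 10 genes lay close to survivin-deleted liver. The median was 0.16 against -0.04 over all genes, the range was -0.26 for Aldh1a1 to 0.45 for Csad, and 7 of 10 were higher, where 44.2% of all genes were. As labelled, none had groups that did not overlap, beside 2.24% of genes higher and 2.26% lower without overlap. With the arrays in doubt exchanged, Aldh1a1 was lower without overlap (-0.71), beside 3.07% of genes. Without both arrays, Aldh1a1 was lower (-0.54) and Aldh3a2 higher (0.47) without overlap, beside 8.53% lower and 15.4% higher. No gene was called (0%), and an unadjusted p under 0.05 was found for 4.31% of genes. Lhpp averaged 2.65 ± 0.58 in survivin-deleted HCC and 2.56 ± 0.60 in survivin-deleted liver (SD, n = 3 each). Without survivin-deleted HCC 2, in which Csad and Nt5e were highest, 3 of the 10 were higher and the median was -0.11.
In wild-type HCC all 10 genes were lower than in wild-type liver, with a median of -0.48 against 0.04 over all genes, of which 55.4% were above 0. Lhpp was lower by the widest margin (-2.66 ± 0.82, SE), followed by Pon1 (-0.97 ± 0.26). Csad and Nt5e were each at -0.63, and Aldh3a2 was at -0.02. Csad and Akr1c6 were lower without overlap, 2 of 10, beside 2.38% of all genes, and 0 were higher without overlap, beside 4.66%. Again 0% of genes were called, and 6% had an unadjusted p under 0.05. Without both arrays in doubt 7 of 10 were lower without overlap (median -0.64), beside 14.6% of genes, and on slide 2 alone 7 of 10 (median -0.57), beside 21.7%. With those arrays exchanged 9 of 10 were lower, 3 of them without overlap (median -0.49), beside 3.4%. For Csad, wild-type HCC lay at 2.39 ± 0.40 and wild-type liver at a tight 3.02 ± 0.04 (SD, n = 3 each). For Akr1c6, wild-type HCC averaged 4.24 ± 0.15 and wild-type liver 4.70 ± 0.06 (SD, n = 3 each).
Markers of several other cell types were also lower in wild-type HCC than in wild-type liver, and their part in these differences was not tested. Macrophage markers were lower for 6 of 6 kept genes (median -0.86, Marco not kept), with a summed log2 signal of 4.0 to 5.84 in wild-type HCC against 5.03 to 6.22 in wild-type liver. Neutrophil markers were lower for 7 of 7 (median -0.81), with sums of 4.86 to 5.99 in wild-type HCC against 5.65 to 6.23 in wild-type liver. Both sets of sums overlapped between the groups. B and plasma cell markers were lower for 5 of 5 (median -0.96), with sums of -0.71 to 1.17 in wild-type HCC against 0.24 to 1.42 in wild-type liver. Endothelial markers were lower for 6 of 6 (median -0.17), and their sums of 3.16 to 3.40 in wild-type HCC lay below the 3.41 to 4.10 of wild-type liver. Higher were hepatocyte markers for 6 of 8 (median 0.05), cholangiocyte markers for 4 of 5 (0.38) and proliferation markers for 4 of 4 (0.21). No marker of these lists was called.

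**Figure D4:**
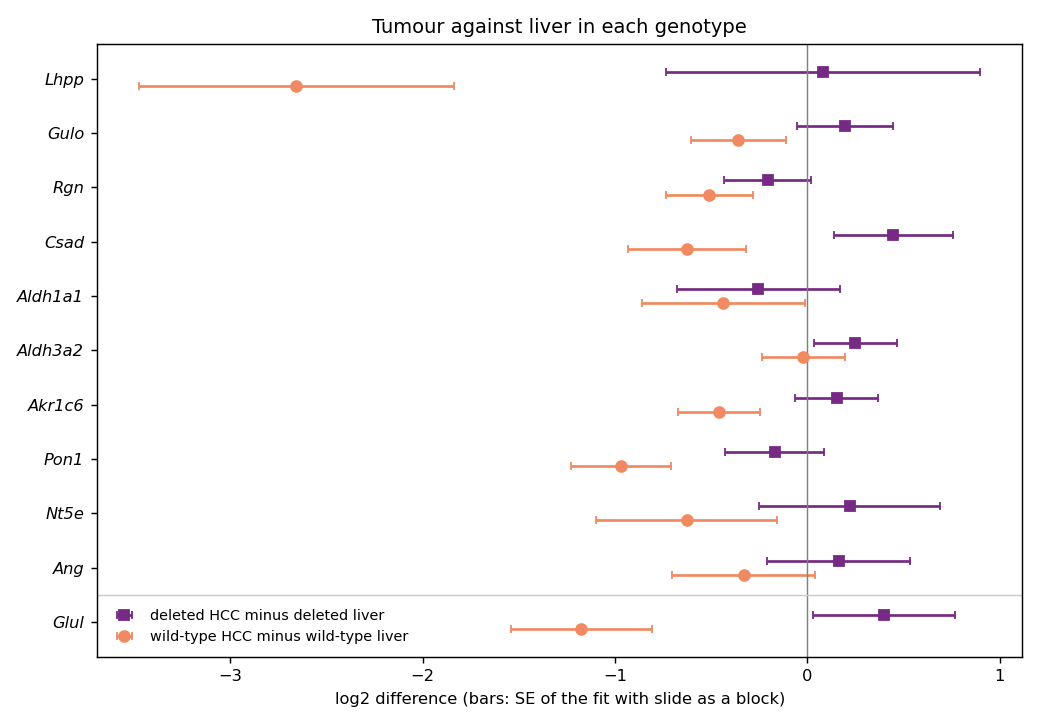
Difference between HCC and non-cancerous liver of the same genotype (log2, x axis) for the 10 genes and Glul, in survivin-deleted and in wild-type mice, with bars of 1 SE. Differences of the 10 genes run from -0.26 to 0.45 in survivin-deleted mice and from -2.66 to -0.02 in wild-type mice.

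The order of the 4 groups can be read from these values. Wild-type HCC had the lowest mean for Lhpp, Gulo, Rgn, Csad, Aldh1a1, Aldh3a2, Akr1c6, Pon1, Nt5e and Ang alike. Its mean for Lhpp was -0.55 ± 2.05 (SD, n = 3), for Pon1 4.05 ± 1.05, for Ang 4.10 ± 1.23 and for Aldh1a1 4.46 ± 1.23, spreads that exceed the gaps to the neighbouring group for all of these except Lhpp. The highest mean was in survivin-deleted HCC for Lhpp, Gulo, Csad, Aldh3a2, Nt5e and Ang, and in wild-type liver for Rgn, Aldh1a1, Akr1c6 and Pon1. As labelled, the arrays of survivin-deleted HCC and survivin-deleted liver overlapped for all 10 genes.

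Glul itself measured 3.07, 3.71 and 2.49 in survivin-deleted HCC, against 1.36, 0.57 and 1.00 in wild-type HCC, and 2.32, 2.71 and 3.05 in survivin-deleted liver, against 2.17, 1.70 and 2.58 in wild-type liver. The tumour groups were far apart and the liver groups overlapped, with differences of 2.11 ± 0.37 and 0.54 ± 0.37 (SE). Across the 12 arrays all 10 genes correlated positively with Glul, with a median Pearson r of 0.48 and a median Spearman rho of 0.34. Over all genes the median r was 0.01, and 51.9% were positive. These arrays share slides and groups, so the correlations are descriptions. Lhpp had r = 0.89, Csad 0.78, Gulo 0.75 and Nt5e 0.71, and Ang followed with 0.56. The lowest were Aldh1a1 at 0.17, Akr1c6 at 0.21, Aldh3a2 at 0.21 and Rgn at 0.30, with Pon1 at 0.39.
Within the 8 arrays of slide 2 the median was 0.76, with Lhpp and Gulo both at 0.95 and Ang at 0.90, and with each slide's mean subtracted it was 0.67. Without both arrays in doubt the median was 0.62, against 0.08 over all genes, and Aldh1a1 was at 0.49. The 2 arrays farthest from the median of Glul were wild-type HCC 2 and 3. Without them the median r was -0.06 over the 10 remaining arrays, against -0.12 over all genes, so pooled over both slides the relation of most genes with Glul rests on those arrays. Lhpp kept r = 0.88, Nt5e 0.67, Csad 0.61 and Gulo 0.47, but Aldh1a1 was at -0.67 and Pon1 at -0.45. Within slide 2 without them, over 6 arrays, 7 of 10 genes were positive, beside 55.3% of all genes. The median was 0.47, against 0.10 over all genes, with Gulo at 0.95, Ang and Nt5e both at 0.80 and Csad at 0.69. With the group means subtracted the median was 0.56 and 8 of 10 genes were positive, beside a median of 0.03 and 53.4% over all genes. Over the 6 liver arrays with slide means subtracted, 7 of 10 were positive, with a median of 0.31. Of all genes 57.5% were positive on these arrays, with a median of 0.09, so nothing is read from the count. There Lhpp (0.90), Gulo (0.86) and Ang (0.77) had the highest r, and Csad (-0.05) and Nt5e (0.01) were near 0. As likeness to Glul was among the values that chose the genes, these correlations are no check of the name pericentral.

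**Figure D5:**
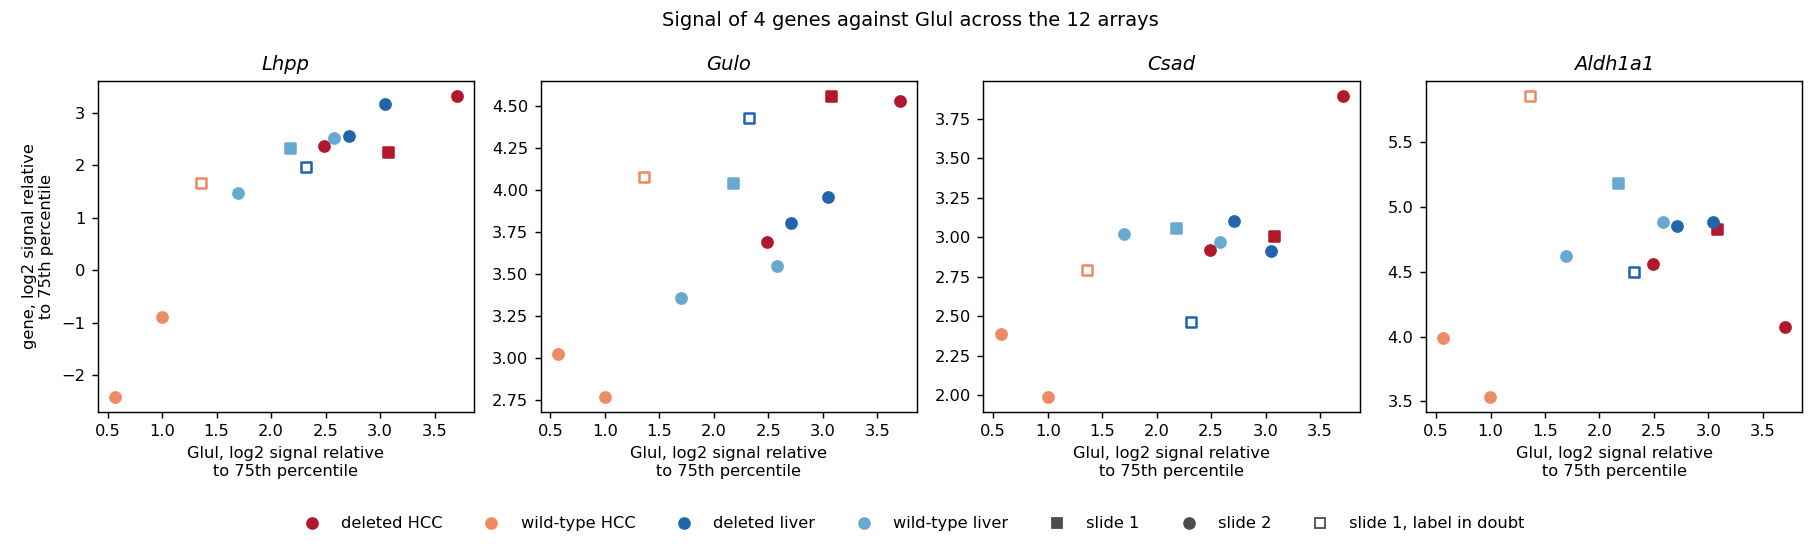
Signal of Lhpp, Gulo, Csad and Aldh1a1 (y axes) against that of Glul (x axes) on the 12 arrays, all as log2 signal relative to the array's 75th percentile; colours are groups, squares slide 1, circles slide 2 and open squares the arrays whose labels are in doubt. Over the 12 arrays Lhpp, Gulo and Csad climb with Glul (r = 0.89, 0.75 and 0.78), and Aldh1a1 hardly does (r = 0.17, but 0.53 within slide 2).

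Among the 10 genes themselves, 41 of 45 pairs correlated positively over the 12 arrays after each slide's mean was subtracted, with a median r of 0.42 and 19 pairs over 0.5. The genes were chosen by their HCC difference and likeness to Glul on these arrays, which favours positive pairs, so the counts are a description. The share among pairs of other genes was not computed. The closest pairs were Lhpp with Ang (0.86), Lhpp with Pon1 (0.83), Gulo with Csad (0.83) and Rgn with Pon1 (0.81). Aldh1a1 and Nt5e ran against each other (-0.28). Against the mean of the other 9 genes, Lhpp had r = 0.97, and Aldh3a2 the lowest, 0.25.
Outside the set, the 5 genes closest to the mean of the 10 on the same scale were Slc1a2 (r = 0.98), Rhbg (0.97), Slc13a3 (0.96), Slc22a3 (0.94) and Onecut2 (0.94), over 12 arrays. That mean was taken of unscaled values, so Lhpp, with the widest range, weighs most in it. As likeness to Glul was among the values that chose the 10 genes, these neighbours are no check of the name pericentral. Slc1a2 is a glutamate transporter and Rhbg an ammonium transporter, both known from the hepatocytes that express Glul. Their differences between survivin-deleted and wild-type HCC were 4.33 ± 1.11 and 2.91 ± 0.65 (SE), against 1.16 ± 1.11 and 1.01 ± 0.65 between survivin-deleted and wild-type liver. Slc13a3, a dicarboxylate transporter, differed by 1.84 ± 0.56 in HCC, Slc22a3, an organic cation transporter, by 2.41 ± 0.94, and Onecut2, a transcription factor, by 1.03 ± 0.38.

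Other zonated genes give the setting of these values. Of 20 further pericentral genes, Glul included, 20 were higher in survivin-deleted than in wild-type HCC, with a median of 2.01, among them Lgr5, which encodes a receptor that strengthens Wnt signalling (3.05 ± 0.75, SE). In liver 16 of the 20 were higher in the survivin-deleted group, with a median of 0.71. Among all genes 47.4% were above 0 in HCC and 55.1% in liver. The list was written with these data known and holds Glul, Slc1a2, Rhbg and Slc13a3, so its counts are no separate check of the name pericentral. Of 16 periportal genes 14 were lower in survivin-deleted HCC, with a median of -0.49, including the serine dehydratase gene Sds (-1.84 ± 1.09) and the glutaminase gene Gls2 (-1.61 ± 0.85). In liver 12 of the 16 were lower in the survivin-deleted group, with a median of -0.26. Tumour minus liver, the median of the pericentral list was 0.03 in the survivin-deleted pair and -1.17 in the wild-type pair. No gene of either list was called in any of these comparisons.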

How the data were processed

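Total RNA of 12 tissue samples was hybridised to single-colour Agilent mouse arrays of 62976 spots, 59305 of them not controls, on the mm9 assembly. The authors read each spot's processed signal intensity with Feature Extraction 10.7 of Agilent, as the submitters' processing notes name it. Per the file headers, spatial and multiplicative trends were removed, surrogates were set for dim spots and background correction was off. In the deposited table of log2 values each array has its 75th percentile near 0 and a median of -3.26 to -2.51, a scale found by setting its columns against the scanner values. It was used only as an alternative.

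The log2 of the signals was averaged over the unflagged spots of a probe, minus the array's 75th percentile. Probes had to have a value on every array and, in at least 1 group, to be well above background throughout, which left 38714 of 55681 probes. The probe of highest mean stood for a gene. No spot was saturated, and the number of arrays limits the precision. The fit was limma 3.58.1 in R 4.3.3 with 4 group means and slide as a block (7 residual degrees of freedom) and eBayes, and p-values were adjusted by Benjamini-Hochberg over all kept probes. Where a difference is called higher, lower or not overlapping, this describes the arrays and not a test. Summed marker signals add the linear signals of a list and are given as log2.

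The genes and all lists were chosen with earlier results of these data known. Named are the 10 genes, Glul, Birc5, up to 3 genes of largest difference from each list in each deletion comparison, and the 5 genes closest to the mean of the 10. Named besides, after their values were seen, were Aldh1a7, Rnase4, Cd4, Klrb1c and Marco. The text gives a selection. Same-numbered arrays share a slide, and the 18 correlations of their deviations from the group means were 0.279 to 0.737. Within slide 2 those of 6 pairs were -0.091 to 0.285, 2 of them over 0.1, and whether same-numbered arrays share an animal was not tested. Alternatives were another scaling, background correction, filters, probe averaging, blocks, the value table, and arrays left out or exchanged.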

Additional observations from a re-analysis of the deposited data

How the results depend on the processing

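The number of genes among the 10 called in liver was 0 under every alternative tried. The median difference between survivin-deleted and wild-type HCC, 0.68, moved to 1.07 on slide 2 only and to 0.95 without both arrays in doubt. Leaving out 1 array at a time it ranged from 0.41 (without wild-type HCC 2) to 0.93 (without wild-type HCC 1). With a replicate block, where the replicate number replaces the slide, it was 0.68, and the block changed no call. With quantile normalization it was 0.77, with normexp background correction 0.58, and 0.59 from the deposited values. The survivin-deleted HCC minus survivin-deleted liver median, 0.16, ranged from -0.11 (without survivin-deleted HCC 2) to 0.34 with 1 array left out, the wild-type HCC minus wild-type liver median from -0.69 to -0.40, and the liver deletion median from -0.09 to 0.10. The median correlation with Glul, 0.48, was 0.76 on slide 2 only and -0.058 without the 2 arrays farthest from the median of Glul, and ranged from 0.21 to 0.60 with 1 array left out. The cause of these shifts was not tested.

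Of 960 values for single genes under an alternative, 11 moved by more than the spread between arrays and 50 changed sign, 4 of them in HCC, all of Aldh1a1. All genes together gave 0 calls in HCC as labelled, and 18 probes were called on slide 2 only and at most 2 under the other alternatives, none of the 10 genes among them. In liver, 0 were called as labelled and at most 2 under any alternative. Exchanging the 2 arrays without a slide block, an alternative chosen after seeing the data, gave an HCC median of 0.59. With 3 arrays a group, and 1 slide dimmer than the other, small differences cannot be resolved.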
